A study of Mus musculus with 8 samples.

Results

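The genes described here are 9 oncofetal genes and their partners: the architectural chromatin genes Hmga1 and Hmga2, the RNA-binding genes Lin28a, Lin28b, Igf2bp1, Igf2bp2 and Igf2bp3, the ubiquitin ligase gene Trim71 and the microRNA-processing gene Dicer1. They were taken by symbol from 23420 gene symbols, and no threshold on a measured value entered the choice. The list was nevertheless drawn up with earlier results of these libraries known, so the genotype difference of each member is a description and supports nothing further. All 9 symbols were in the tables, 8 had counts and passed the filter on low counts, and Lin28a had no count in any library.

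Oncofetal genes are active in the embryo, are silenced in most adult tissues and return in many tumours. Several of them are joined by the let-7 microRNAs, which bind short complementary sites in messenger RNAs and lower their level and translation. Lin28a and Lin28b block the maturation of let-7 precursors, Dicer1 carries out the last cut of that maturation, and Hmga2, Trim71, Lin28b and the Igf2bp genes are known let-7 targets. HMGA proteins bend AT-rich DNA, and Igf2bp proteins bind and stabilise messenger RNAs, among them that of Igf2.

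The counts came from total RNA of mouse embryonic fibroblasts on a C57BL6/N background, all of which expressed the adenoviral protein E1A and the activated Ras HRasV12. Of the 8 libraries, 4 were labelled Neat1 null (Neat1-/-, lacking the long noncoding RNA Neat1) and 4 wild-type for Neat1. Every difference described here is therefore between transformed cells, and untransformed cells were not analysed here. Whether same-genotype libraries derive from different embryos or cultures is not in the labels. By the sex calls given below, the Neat1 null libraries did not all come from a single embryo, and for the rest this is not known. Every p-value accordingly reflects library-to-library spread, which may be technical.

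The Neat1 null libraries held 19651035 to 38950207 counts in genes and the wild-type libraries 31651625 to 37069334. Neat1 itself had 6.92, 11.3, 7.90 and 6.12 counts in 1e6 counted reads (CPM) in Neat1 null libraries 1 to 4, against 138, 588, 753 and 1320 CPM in wild-type libraries 1 to 4. Neat1 null libraries 1 and 3 stood apart: ribosomal protein genes took 25.1% and 14.9% of their counts, against 5.86% to 9.03% in the other 6. By Xist and Y-linked genes, Neat1 null libraries 1, 2 and 4 were male and the other 5 libraries female. The slope of a library's deviation in log2 CPM on log2 exon length was -0.316, 0.00613, -0.481 and -0.0542 in Neat1 null libraries 1 to 4, against 0.137 to 0.247 in the wild-type libraries. Longer genes thus read lower in Neat1 null libraries 1 and 3. Of the members tested, Lin28b, Igf2bp1, Igf2bp2, Igf2bp3, Trim71 and Dicer1 are longer than 78.4% to 98.3% of tested genes, Hmga2 than 74.2% and Hmga1 than 14.6%. Among fibroblast markers, vimentin (Vim) had 1890 to 3260 CPM in Neat1 null and 1230 to 2180 CPM in wild-type libraries, while the matrix gene Lum had no count in any Neat1 null library and 0 to 0.0265 CPM in wild-type libraries.

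Sequences of the let-7 family are shown here because they define the sites that most of these genes share. RefSeq (GRCm38.p6) lists 11 mature names of the family for the mouse, and 10 of them carry the same seed, bases 2 to 8, which is given in capitals. They are written 5′ to 3′.
let-7a-5p: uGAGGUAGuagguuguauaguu
let-7g-5p: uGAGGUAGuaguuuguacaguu
let-7i-5p: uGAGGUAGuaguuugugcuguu
miR-98-5p: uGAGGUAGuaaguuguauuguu
let-7j: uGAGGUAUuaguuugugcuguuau
The gene of let-7a-5p in this table is at chr13:48538239-48538260 on the minus strand, and that of let-7g-5p at chr9:106178846-106178867 on the plus strand. The exception, let-7j, ends its seed in another base. Mature microRNAs were not measured in these libraries.

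Matches to the shared seed were counted in the longest annotated 3′ UTR of each gene (GENCODE M21, GRCm38), on the transcript strand only. A match was CTACCTC or TACCTCA, and where these overlap as CTACCTCA the site was counted as 1 match of 8 bases. Of all 21067 protein-coding 3′ UTRs, 14.8% held at least 1 match, whereas 8 of the 9 genes did, with 29 matches in all. Since these genes were listed partly as let-7 targets, that share follows from the choice. Hmga2 held 7 matches in 3014 bases, a number reached by 0.0190% of all 3′ UTRs and by 0.0693% of the 2888 UTRs whose length was within 25% of its own. Trim71 held 6, Lin28b and Igf2bp1 5 each, Lin28a and Igf2bp2 2 each, and Hmga1 and Igf2bp3 1 each. Dicer1 held 0 in 3851 bases, and 32.6% of UTRs of like length hold at least 1. The matches differ in strength class: 4 of the 6 in Trim71 were of 8 bases, against 1 of the 7 in Hmga2.

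The sites below, each with its match in capitals, contrast the gene whose level differed most with members whose levels differed less.
Hmga2, 58 bases after the stop codon, chr10:120364222-120364245, minus strand: ccgacattcaatttCTACCTCAgc
Hmga2, 1295 bases after the stop codon, chr10:120362986-120363008, minus strand: cccactcctcaataCTACCTCtg
Hmga2, 2591 bases after the stop codon, chr10:120361690-120361712, minus strand: atcaaaacacactaCTACCTCtt
Hmga1, 801 bases after the stop codon, chr17:27563278-27563300, plus strand: cctctgttcacaaaCTACCTCtg
Lin28b, 36 bases after the stop codon, chr10:45381020-45381043, minus strand: cccgggcgggaagtCTACCTCAtg
Igf2bp3, 548 bases after the stop codon, chr6:49086785-49086808, minus strand: gcatttttactcaaCTACCTCAgg
Trim71, 166 bases after the stop codon, chr9:114512470-114512493, minus strand: acattgcctaagtcCTACCTCAgc
The same 7 bases of the seed match thus stand in genes that are described below with very different levels and genotype differences. A match is a run of letters and not a shown binding site.

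**Figure D1:**
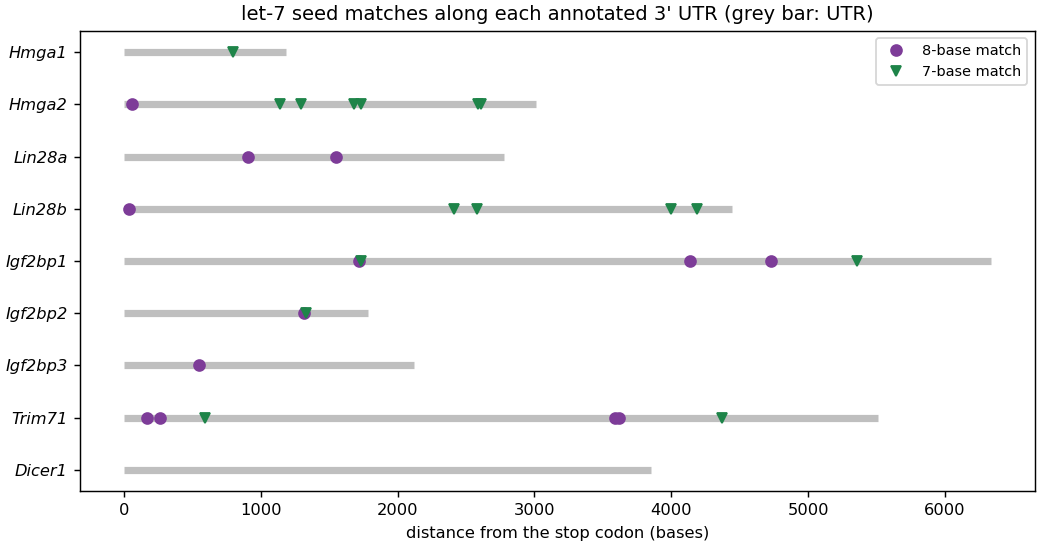
Position of each let-7 seed match along the longest annotated 3′ UTR of the 9 genes, in bases from the stop codon; grey bars show the length of the UTR, circles matches of 8 bases and triangles matches of 7. Hmga2 holds 7 matches in 3014 bases, Trim71 6 and Dicer1 0.

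Per kilobase of annotated exon, Hmga2 was the most abundant member and the order of the group means was the same in both genotypes. In Neat1 null libraries the means ± SD (n = 4) were 36.0 ± 15.6 CPM per kilobase for Hmga2, 22.8 ± 7.06 for Igf2bp2, 13.1 ± 4.59 for Igf2bp1, 7.17 ± 2.52 for Igf2bp3, 5.21 ± 2.44 for Dicer1, 4.57 ± 2.83 for Hmga1, 1.86 ± 0.944 for Lin28b and 0.520 ± 0.751 for Trim71. In wild-type libraries the same levels were 141 ± 64.0, 26.0 ± 5.22, 12.8 ± 2.91, 9.51 ± 2.27, 6.17 ± 1.79, 4.59 ± 0.604, 2.11 ± 0.789 and 0.226 ± 0.239 CPM per kilobase in that order. Hmga2 and Igf2bp2 overlapped in range in the Neat1 null libraries (14.7 to 52.0 against 12.5 to 28.1) and did not in the wild-type libraries (83.9 to 208 against 21.3 to 32.5). Igf2bp3, Dicer1 and Hmga1, neighbours in that order, each overlapped with the next in both genotypes.

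Hmga2, which remodels chromatin in embryonic mesenchyme, was lower in every Neat1 null library than in any wild-type library. It is a protein-coding gene on chromosome 10 (GRCm38, 120361275 to 120476469, minus strand). It had 352, 274, 99.3 and 250 CPM in Neat1 null libraries 1 to 4, against 596, 568, 1240 and 1410 CPM in wild-type libraries 1 to 4. Neat1 null library 3 was the lowest of all and wild-type libraries 3 and 4 the highest, more than double wild-type libraries 1 and 2, and the genotypes did not overlap. The means were 244 ± 106 CPM in Neat1 null and 953 ± 433 CPM in wild-type libraries (SD, n = 4 each), so the wild-type mean was 3.91 times the Neat1 null mean. The log2 fold change, Neat1 null minus wild-type, came to -1.97 (SE 0.49, adjusted p = 0.0201, edgeR). In bulk RNA, fewer cells with the transcript and less of it per cell cannot be told apart.

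Hmga2 was the only 1 of the 8 tested members past the threshold, an adjusted p under 0.05 over all genes. Over all 13316 genes tested, 17.7% passed it, 9.97% as higher and 7.72% as lower in Neat1 null libraries. The groups did not overlap for 1 of the 8 members, against 22.6% of all genes, 11.0% of them lower in Neat1 null libraries. Both counts contain the contrast known when the members were listed, and nothing is read from them. All genes together split into 1328 higher and 1028 lower, and with upper-quartile factors, with which the median over all genes was -0.239 in place of -0.06, into 1036 higher and 1428 lower. Hmga2 had -2.19 with those factors. With a length and GC trend removed from every library, Hmga2 stood at -1.61 (SE 0.42, adjusted p = 0.0410, edgeR), with 157 to 419 corrected CPM in Neat1 null and 505 to 1210 in wild-type libraries. Its call ended when Neat1 null library 3 (-1.69, adjusted p = 0.0646, edgeR), wild-type library 3 (-1.81, 0.0718) or wild-type library 4 (-1.72, 0.0752) was omitted, and without Neat1 null libraries 1 and 3 together (-1.88, 0.144). In those 4 fits 7 to 18 genes of the whole table passed.

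**Figure D2:**
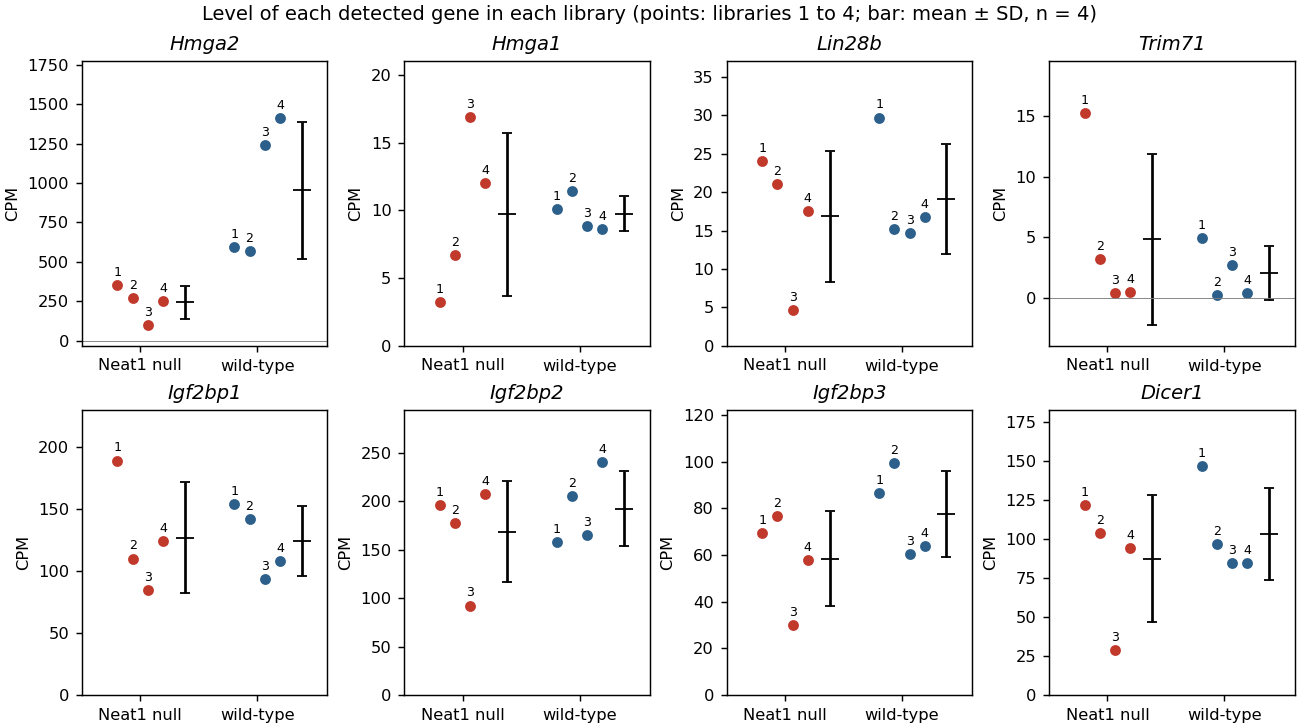
CPM of each of the 8 detected genes in each library, with Neat1 null on the left and wild-type on the right; numbers are library numbers and bars the mean ± SD (n = 4). The genotypes are separate for Hmga2 (99.3 to 352 against 568 to 1410 CPM) and overlap for the other 7 genes.

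**Figure D3:**
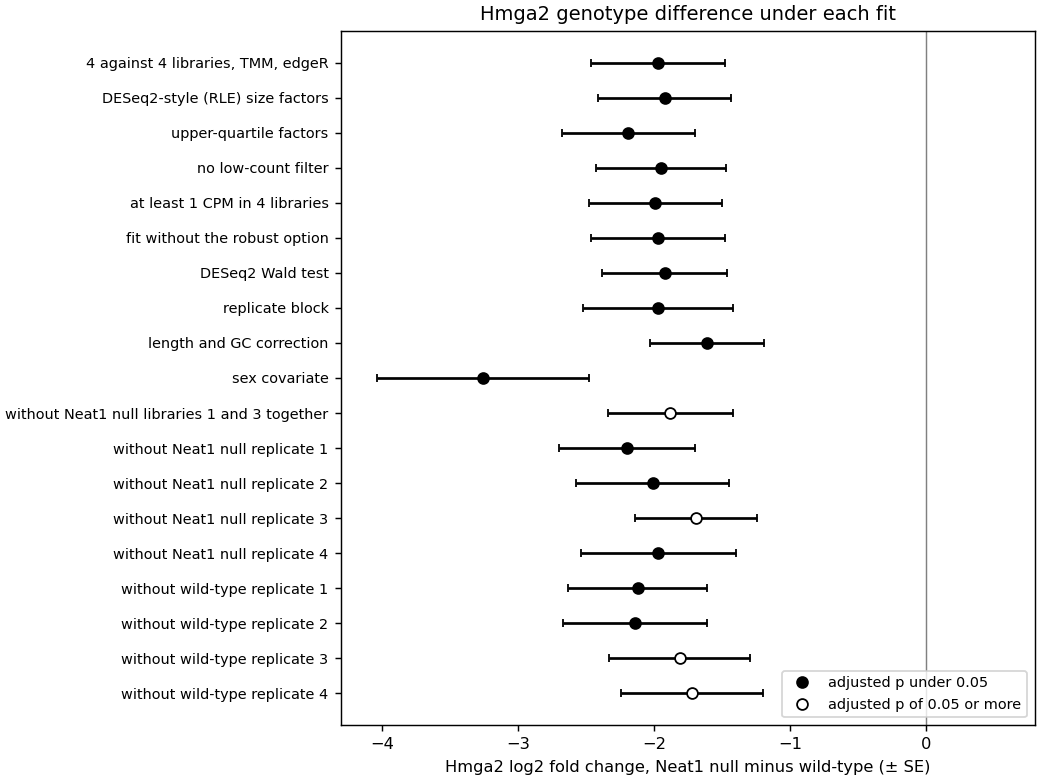
Log2 fold change of Hmga2 (± SE) under each fit; filled points have an adjusted p under 0.05. All values lie between -3.26 and -1.61, and 4 open points mark the fits in which the adjusted p was 0.0646 to 0.144.

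Of the 50-base windows of Hmga2, 0.768% occur in another transcript of the annotation. That annotation holds no entry named Hmga2-ps1, so sequence shared with this pseudogene is not in the figure and was not tested. Hmga2-ps1, counted separately, had 191, 202, 108 and 187 counts in Neat1 null libraries 1 to 4, against 955, 284, 415 and 328 in wild-type libraries 1 to 4. The counts of Hmga2 were 3923, 9344, 2815 and 7964 in Neat1 null libraries, against 22471, 25731, 53247 and 57745 in wild-type libraries. The pseudogene was thus far below the gene in every library. Exons of Hmga2 overlap the gene 1700006J14Rik on the other strand, and the strand setting of the counting is not given in the sources used here.

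Hmga1, the second gene of the family, had nearly equal means in both genotypes (9.72 ± 6.02 CPM in Neat1 null and 9.75 ± 1.28 CPM in wild-type libraries, SD, n = 4 each) but a wide spread among Neat1 null libraries. Its CPM were 3.23, 6.69, 16.9 and 12.0 in Neat1 null libraries 1 to 4, against 10.1, 11.4, 8.83 and 8.64 in wild-type libraries 1 to 4. The highest Neat1 null library was 5.24 times the lowest, the highest wild-type library 1.32 times the lowest, and the wild-type values lay inside the Neat1 null range. Its genotype difference was 0.00 on the log2 scale (SE 0.46, adjusted p = 1, edgeR), -0.18 with upper-quartile factors, and -0.70 (SE 0.42) once length and GC were corrected. Without that correction the libraries ran in opposite order for the 2 Hmga genes within each genotype: Neat1 null library 3, the highest in Hmga1, was the lowest in Hmga2, and library 1 the reverse. With it, Hmga1 had 2.35, 8.31, 7.58 and 11.8 CPM in Neat1 null libraries 1 to 4, and Hmga2 419, 250, 157 and 255 CPM. Library 1 kept its place in both genes, but library 3 was no longer the highest in Hmga1. The level of Hmga1 is uncertain, since 55.0% of its 50-base windows also occur in other annotated transcripts. How reads that match more than 1 place were counted is not given in the sources used here.

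Of the Lin28 genes, which keep let-7 precursors from maturing, Lin28b was the one detected. It had 24.1, 21.0, 4.62 and 17.6 CPM in Neat1 null libraries 1 to 4, against 29.7, 15.2, 14.7 and 16.8 CPM in wild-type libraries 1 to 4. Neat1 null library 3 and wild-type library 1 were the extremes, and the other 6 libraries lay between 14.7 and 24.1 CPM with the genotypes mixed. Its genotype difference was -0.18 on the log2 scale (SE 0.46, adjusted p = 0.793, edgeR), and 0.44 (SE 0.37) once length and GC were corrected. Lin28a had 0 counts in all 8 libraries, which allows up to 0.0880 to 0.269 CPM in a Neat1 null library and 0.0663 to 0.0795 CPM in a wild-type library (3 counts, counting error only). The pluripotent and germ cell markers, with which Lin28a is usually found, summed to 0.459 to 0.997 CPM over 10 genes in Neat1 null libraries, against 0.451 to 4.02 CPM in wild-type libraries, with Zfp42 and Tdgf1 at 0 in all.

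Trim71, a ubiquitin ligase and RNA repressor of early embryos, was present in some libraries of each genotype and nearly absent in the others. It had 15.2, 3.23, 0.459 and 0.533 CPM in Neat1 null libraries 1 to 4, against 4.98, 0.265, 2.77 and 0.414 CPM in wild-type libraries 1 to 4. Library 1 was the highest in each genotype. Counts ran from 13 to 169 in Neat1 null and from 12 to 188 in wild-type libraries, and the highest value was 57.3 times the lowest over all 8. The log2 fold change of 1.18 (SE 1.17, adjusted p = 0.491, edgeR) became -0.55 without Neat1 null library 1. Exons of Trim71 overlap C130032M10Rik on the other strand, so part of these low counts is uncertain. Overlaps with genes on the other strand are also annotated for Hmga1 (Gm49774 and AI413582), Igf2bp1 (Gm29202) and Igf2bp3 (Malsu1). Igf2bp1 overlaps Mir3063 on its own strand as well. What these overlaps add to the counts was not tested.

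The 3 Igf2bp genes, whose proteins bind the messenger RNAs of Igf2, Myc and others, overlapped between the genotypes, and none of them passed the threshold. Igf2bp1 had 189, 110, 84.7 and 124 CPM in Neat1 null libraries 1 to 4, against 154, 142, 93.6 and 108 CPM in wild-type libraries 1 to 4 (log2 fold change 0.03, SE 0.36, adjusted p = 0.955, edgeR, and -0.15 with upper-quartile factors). Igf2bp2 had 196, 178, 92.4 and 208 CPM in Neat1 null libraries, against 158, 206, 165 and 241 CPM in wild-type libraries (-0.19, SE 0.36, adjusted p = 0.724, edgeR). Igf2bp3 had 69.4, 76.7, 30.0 and 57.9 CPM in Neat1 null libraries, against 86.6, 99.3, 60.6 and 63.9 CPM in wild-type libraries (-0.41, SE 0.36, adjusted p = 0.432, edgeR). In all 3, Neat1 null library 3 was the lowest library and the remaining Neat1 null libraries overlapped with the wild-type ones. Without Neat1 null libraries 1 and 3 the log2 fold changes were -0.09, -0.01 and -0.21. The ratio of Hmga2 to the summed CPM of the 3 genes, which does not depend on the scaling of a library, was 0.775, 0.752, 0.480 and 0.642 in Neat1 null libraries, against 1.50, 1.27, 3.89 and 3.41 in wild-type libraries. It averaged 0.662 ± 0.135 in Neat1 null and 2.52 ± 1.33 in wild-type libraries (SD, n = 4 each), so the difference of Hmga2 was also present relative to these genes.

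Dicer1, which cuts microRNA precursors to their mature length, had 122, 104, 28.6 and 94.4 CPM in Neat1 null libraries 1 to 4, against 147, 96.9, 84.5 and 84.8 CPM in wild-type libraries 1 to 4. Apart from the low Neat1 null library 3 the genotypes overlapped (log2 fold change -0.24, SE 0.42, adjusted p = 0.696, edgeR). With length and GC corrected it was 0.44 (SE 0.32). Dicer1 has 16750 bases of annotated exon, the longest of the members, and Neat1 null library 3 had the most negative length slope of all libraries. The fitted length and GC trend for Dicer1 in that library was -1.12 on the log2 scale, and the corrected value of 62.4 CPM lay just above the lowest wild-type value of 61.5.

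**Figure D4:**
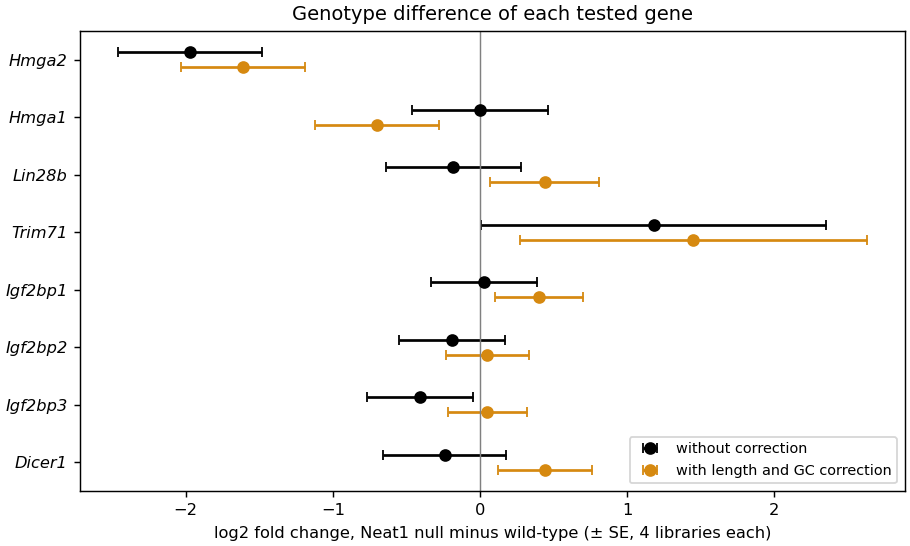
Log2 fold change (Neat1 null minus wild-type, ± SE) of the 8 tested genes without (black) and with (orange) the length and GC correction. Hmga2 lies at -1.97 and -1.61; Lin28b, Igf2bp2, Igf2bp3 and Dicer1 are below 0 without and above 0 with the correction.

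The question whether Hmga2 varies together with the other let-7 targets was put to the 8 libraries as correlations of log2(CPM + 1), with an exact 2-sided permutation test over 40320 pairings and adjustment over 7 pairs. The pairs also took in Hmga1, not named above among the known targets, and Dicer1, which held 0 matches. None of the 7 pairs passed at an adjusted 0.05, and none had an unadjusted p under 0.05. Pearson's r with Igf2bp2 was 0.636 (exact p = 0.0872, adjusted 0.391) and Spearman's rho 0.286 (exact p = 0.501, adjusted 0.882). The adjusted p of r was 0.391 also for Igf2bp3, Dicer1 and Lin28b, 0.770 for Hmga1 and 0.901 for Igf2bp1 and Trim71, and that of rho 0.882 for all. With Igf2bp3 r was 0.551 (exact p = 0.155) and rho 0.381 (exact p = 0.360). With Dicer1 r was 0.521 (exact p = 0.193) and rho 0.0952 (exact p = 0.840). With Lin28b r was 0.487 (exact p = 0.224) and rho 0.0952 (exact p = 0.840). Igf2bp1 and Trim71 lay near 0, with r of 0.105 and 0.0476 (exact p = 0.805 and 0.901) and rho of 0.0714 and -0.0714 (exact p = 0.882 each). Hmga1 had r of -0.257 (exact p = 0.550) and rho of -0.429 (exact p = 0.299).

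These pooled values join 2 genotypes that do not overlap in Hmga2, and they rest on a few libraries. Without Neat1 null library 3 and wild-type library 4, the farthest from the median of Hmga2, r became -0.566 for Igf2bp2, 0.0853 for Igf2bp3, -0.192 for Dicer1 and -0.310 for Lin28b. As deviations from the genotype means, permuted within genotypes, r was -0.744 for Hmga1 (exact p = 0.0243, adjusted 0.170), 0.739 for Igf2bp2 (exact p = 0.0590, adjusted 0.207), 0.553 for Lin28b and 0.523 for Dicer1 (exact p = 0.188 and 0.262). Correlations within a genotype are not given, since 4 libraries are too few, but the orders are. Among Neat1 null libraries, Hmga2, Lin28b, Dicer1 and Trim71 were all highest in library 1, then 2, and lowest in 3. Among wild-type libraries the order broke up: libraries 3 and 4, more than double the others in Hmga2, were the lower pair in Igf2bp1, Igf2bp3 and Dicer1.

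**Figure D5:**
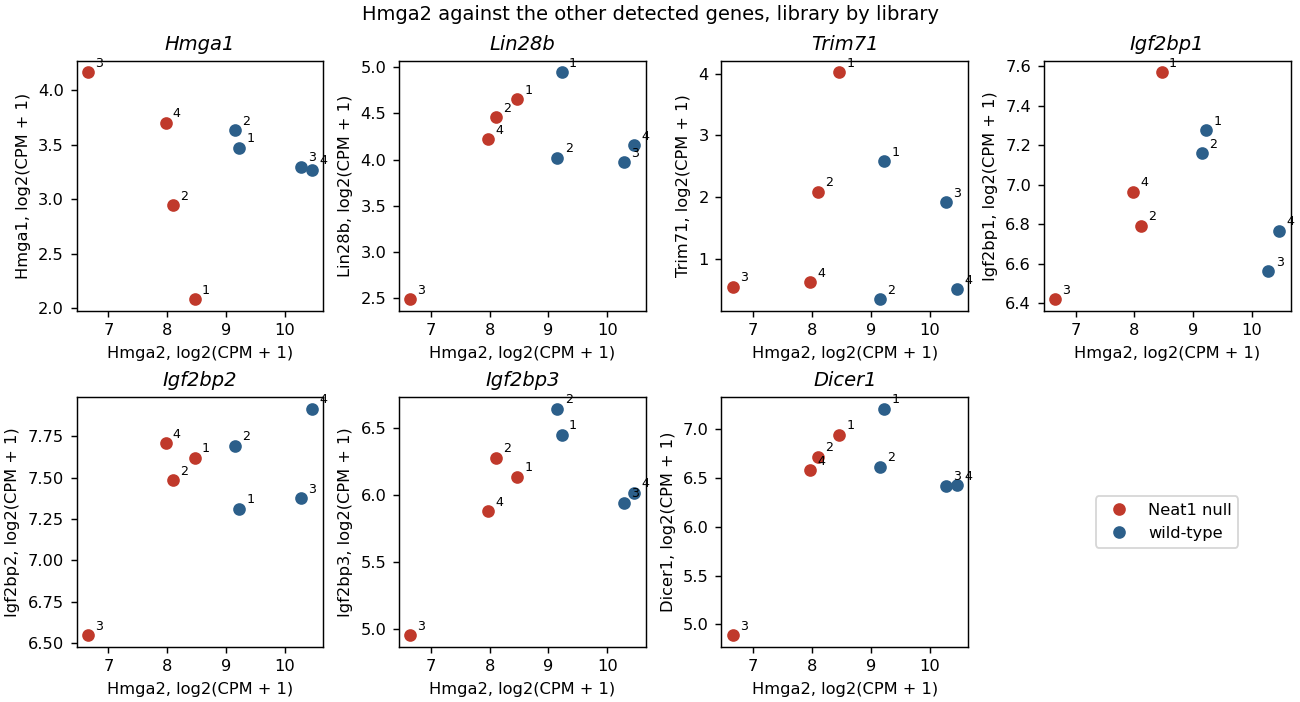
Hmga2 on the horizontal axis against each of the other 7 detected genes, both as log2(CPM + 1), with 1 point per library (red Neat1 null, blue wild-type). Neat1 null library 3 lies at the lower left for Lin28b, the Igf2bp genes and Dicer1, and wild-type libraries 3 and 4 lie at the right without being high in Igf2bp1, Igf2bp3 or Dicer1.

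The genes whose pattern was most like that of Hmga2 over the 8 libraries, ranked among 11796 genes whose mean log2 CPM was 1 or more, were Slc1a3, Ppm1k, A830010M20Rik, Wdr13 and Stxbp5, with Pearson's r of 0.993, 0.991, 0.990, 0.986 and 0.986. Slc1a3, a glutamate transporter, had 3.95, 4.02, 1.59 and 3.55 CPM in Neat1 null libraries, against 5.41, 5.74, 9.34 and 9.74 CPM in wild-type libraries. Ppm1k, a mitochondrial phosphatase of branched-chain amino acid breakdown, had 7.90, 6.34, 2.86 and 5.11 CPM in Neat1 null libraries, against 11.5, 13.8, 20.5 and 23.6 CPM in wild-type libraries. Like Hmga2, these were lowest in Neat1 null library 3 and highest in wild-type libraries 3 and 4, which follows from how they were chosen. Slc1a3 did not pass the threshold (adjusted p = 0.0772, edgeR), while Ppm1k, A830010M20Rik, Wdr13 and Stxbp5 did. Without Neat1 null library 3 none of these genes passed. The other members stood at ranks 3043 (Igf2bp2) to 7006 (Hmga1) of that order.

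Of 26 other genes described as let-7 targets, 25 were tested, of which 2 fell and 0 rose, a count near the 7.72% of all genes called lower. It was 4 lower with upper-quartile factors, with DESeq2 and without Neat1 null library 2, and 9 lower with sex as a covariate. The list's median log2 fold change was -0.57, beside -0.06 over all genes tested. Insr, the insulin receptor, had 47.0, 51.0, 18.1 and 46.1 CPM in Neat1 null libraries, against 88.8, 99.5, 164 and 137 CPM in wild-type libraries (log2 fold change -1.59, SE 0.39, adjusted p = 0.0200, edgeR). Arid3a, a DNA-binding factor, had 25.4, 27.9, 12.5 and 26.3 CPM in Neat1 null libraries, against 47.8, 68.6, 45.9 and 53.3 CPM in wild-type libraries (-1.23, SE 0.35, adjusted p = 0.0289, edgeR). In both the genotypes did not overlap. Their calls ended without Neat1 null library 3, wild-type library 3 or wild-type library 4, and that of Arid3a also without wild-type library 2. After the length and GC correction Insr had -0.92 and Arid3a -1.24, both still called, 3 genes of the list were lower and its median was -0.39. Classic targets such as Nras, Myc and Ccnd1 had log2 fold changes of 0.13, -0.29 and -0.35 and did not pass.

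Across the annotated genome, genes other than the members were grouped by the number of let-7 matches in the 3′ UTR. The share called lower in Neat1 null libraries was 18.2% of 77 genes with 3 or more matches, 13.7% of 335 with 2, 10.9% of 1776 with 1 and 7.07% of 10529 with 0. The median exon length of these groups was 9409, 6861, 5648 and 4280 bases in the same order, so the number of matches moved with length. The genes called higher numbered 1, 16, 114 and 1167 in the same order. After the length and GC correction the shares called lower were 9.09%, 6.87%, 6.36% and 5.50%, the genes called lower numbered 7, 23, 113 and 579 and those called higher 8, 19, 90 and 581. Among genes with 3 or more matches, higher and lower calls were then about equal in number. The corrected median log2 fold changes were -0.09, -0.13, -0.05 and 0.01. The part of length in the uncorrected order was not tested further.

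The genes that make and use microRNAs, 19 in the list beside Dicer1, were all tested. Tarbp2, the double-stranded RNA partner of Dicer1, rose, with 60.6, 46.3, 112 and 68.3 CPM in Neat1 null libraries, against 40.9, 30.4, 20.7 and 23.8 CPM in wild-type libraries (1.31, SE 0.37, adjusted p = 0.0288, edgeR). The Argonaute gene Ago3, listed as Eif2c3, fell, with 8.71, 14.2, 5.47 and 12.2 CPM in Neat1 null libraries, against 23.2, 14.4, 30.2 and 26.2 CPM in wild-type libraries (-1.21, SE 0.40, adjusted p = 0.0468, edgeR). After the length and GC correction Tarbp2 had 1.08 and stayed called, and Ago3 had -0.26 and did not. Of the members of this list, 1 rose and 1 fell, beside 9.97% called higher and 7.72% called lower over all genes tested. The list had a median of -0.45, against -0.06 for all genes. Correcting for length and GC brought the list's median to -0.09, and adding sex as a covariate to -1.39. The number called lower was 4 without Neat1 null library 2, 2 with upper-quartile factors and 0 with length and GC corrected. The uridyl transferases that act with Lin28 on let-7 precursors, Zcchc11 and Zcchc6, had log2 fold changes of -0.87 and -1.02 (adjusted p = 0.128 and 0.0843, edgeR). Both calls ended without Neat1 null library 3, wild-type library 3 or wild-type library 4; that of Tarbp2 also without wild-type library 2, and that of Ago3 also without Neat1 null library 1 or 4 or wild-type library 1. The call of Ago3 ended as well with no low-count filter, without the robust option and with the replicate block.

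The 12 let-7 precursor genes found in the tables were too low to test. Together they summed to 1.35, 0.147, 0 and 0.157 CPM in Neat1 null libraries 1 to 4, against 0.106, 0.133, 0.489 and 0.536 CPM in wild-type libraries 1 to 4. Mirlet7a-2, Mirlet7c-1, Mirlet7f-2, Mirlet7g and Mir98 had no count in any library. Mirlet7d and Mirlet7e were highest, at up to 0.269 and 0.988 CPM in Neat1 null and up to 0.389 and 0.0730 CPM in wild-type libraries. Mirlet7a-1 and Mirlet7f-1 reached 0.0233 CPM in wild-type library 3 only. Mirlet7b reached 0.0898 CPM in Neat1 null and 0.0466 CPM in wild-type libraries, Mirlet7i 0.0314 and 0.0699 CPM, and Mirlet7c-2 0 and 0.0699 CPM. These counts reflect read fragments over short hairpin genes and say nothing of mature let-7.

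Among genes of the Igf2 axis and imprinted fetal growth genes, 14 in the list, 12 were tested, of which 6 fell and 0 rose, and the median was -1.44 on the log2 scale. Over all genes tested, 7.72% were called lower and 9.97% higher, and the median was -0.06. The list was chosen with earlier results of these data known, so nothing is read from its count. Igf2 itself, whose messenger RNA the Igf2bp proteins bind, was not tested, with 0.141 to 0.205 CPM in Neat1 null and 0.0221 to 1.10 CPM in wild-type libraries, and Igf1 was as low (0.0706 to 0.269 and 0.133 to 0.839 CPM). Gpc3, a glypican, had 7.01, 8.71, 11.8 and 21.8 CPM in Neat1 null libraries, against 46.6, 19.2, 68.9 and 41.2 CPM in wild-type libraries (-1.83, SE 0.45, adjusted p = 0.0201, edgeR), with a slight overlap. Plag1, an oncofetal zinc finger factor that activates Igf2, had 2.52, 10.6, 2.65 and 6.40 CPM in Neat1 null libraries, against 17.3, 11.9, 22.8 and 23.3 CPM in wild-type libraries (-1.76, SE 0.49, adjusted p = 0.0271, edgeR). The imprinted genes Peg3 and Plagl1 fell by 1.63 (SE 0.51) and 1.48 (SE 0.47), and Igf2r, the clearance receptor of Igf2, by 1.40 (SE 0.44), beside Insr, which this list shares with the let-7 targets.

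The other genes of that list did not pass: Dlk1 had a log2 fold change of -1.51, Igf1r of -0.70, H19 of -0.68, Cdkn1c of 0.05, Mest of 0.02 and Grb10 of 0.00. None of the 6 calls was left without Neat1 null library 3, wild-type library 3 or wild-type library 4, while the median of the list ranged from -1.60 to -0.91 over the 8 fits that omit 1 library. After the length and GC correction Gpc3 (-2.03), Plag1 (-1.22) and Insr remained called, and the median was -1.08. With sex as a covariate the call of Gpc3 ended (-1.90, adjusted p = 0.105, edgeR). Without Neat1 null libraries 1 and 3 together, no gene of any list described here was called. Calls among Igf2r, Plagl1, Plag1 and Peg3 also ended without Neat1 null library 1 (Igf2r, Plagl1, Plag1), Neat1 null library 4 (Plagl1, Peg3), wild-type library 1 (Plagl1) or wild-type library 2 (Igf2r, Peg3).

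Of 12 listed genes of other high mobility group proteins, 11 were tested, and their median was 0.49 on the log2 scale. The nucleosome-binding genes Hmgn1 and Hmgn2 rose by 1.55 (SE 0.51, adjusted p = 0.0493, edgeR) and 1.87 (SE 0.57, adjusted p = 0.0370, edgeR). Hmgn2 had 869, 326, 389 and 403 CPM in Neat1 null libraries, against 305, 134, 42.1 and 63.6 CPM in wild-type libraries. Neither call was left after the length and GC correction (1.57 and 1.53), nor without Neat1 null library 1 or 3 or wild-type library 2, 3 or 4. Both calls ended as well with sex as a covariate (1.00 and 1.51, adjusted p = 0.319 and 0.195, edgeR). Hmgn1 also missed the threshold with upper-quartile factors, without the robust option and with the filter of 1 CPM in 4 libraries. Without Neat1 null library 1 Hmgn1 had 0.91. Of 6 listed genes of senescence and the Ink4a locus (Cdkn2a, Cdkn2b, Cdkn1a and the regulators Ezh2, Bmi1 and Jdp2), none passed. Cdkn2a, the gene of the Ink4a locus that Hmga2 is known to hold down in mouse neural stem cells, had 1010, 200, 354 and 263 CPM in Neat1 null libraries, against 150, 188, 181 and 171 CPM in wild-type libraries (1.40, adjusted p = 0.0541, edgeR), and the list had a median of -0.09. With no low-count filter, with DESeq2 and without Neat1 null library 2 or 4, 1 gene of the list was called higher.

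Markers of other cell types were low for some types, such as the endothelial ones, but not for all. Of 5 endothelial markers, 5 macrophage markers and 6 skeletal muscle markers the summed levels were 0.359 to 2.57, 13.1 to 32.0 and 2.73 to 15.5 CPM in Neat1 null libraries, against 1.59 to 9.92, 14.8 to 108 and 3.23 to 15.4 CPM in wild-type libraries, with Ptprc, Myod1 and Myf5 at 0 in all. Of 7 epithelial markers the sum was 250 to 3180 CPM in Neat1 null and 194 to 633 CPM in wild-type libraries, with 3140 CPM from Krt18 in Neat1 null library 1 and Krt14 at 0 in all. Of 6 neural markers it was 77.2 to 564 CPM and 207 to 345 CPM, mostly from Nes, with Dcx and Sox1 at 0. Among the epithelial markers, Epcam had 34.0 to 64.6 CPM in Neat1 null and 26.9 to 57.1 CPM in wild-type libraries. Of these types, 5 epithelial, 3 neural, 2 endothelial, 2 macrophage and 1 skeletal muscle markers were tested. Among them 2 fell and 0 rose, beside 7.72% called lower and 9.97% called higher over all genes tested. Cd68, a lysosomal protein, had 3.68, 11.2, 18.3 and 15.7 CPM in Neat1 null libraries, against 8.88, 102, 68.2 and 92.4 CPM in wild-type libraries (-2.47, adjusted p = 0.0239, edgeR). Map2, a microtubule-binding protein, had 6.20, 24.5, 8.04 and 14.1 CPM in Neat1 null libraries, against 23.8, 25.9, 38.1 and 51.0 CPM in wild-type libraries (-1.39, adjusted p = 0.0439, edgeR). Both calls ended when Neat1 null library 3, wild-type library 3 or wild-type library 4 was omitted, and with sex as a covariate (-1.89 and -2.11, adjusted p = 0.227 and 0.0676, edgeR). That of Map2 ended also after the length and GC correction (-0.68) and without Neat1 null library 1 or 4 or wild-type library 2. Some fibroblast markers were low as well. Col1a1 had 1.29 to 5.75 CPM in Neat1 null and 2.98 to 12.4 CPM in wild-type libraries. Dcn had 0.0353 to 0.898 and 0.159 to 0.513 CPM in the same order, whereas Fn1 had 431 to 1390 and 505 to 918 CPM. Of 10 fibroblast markers, 9 were tested and 1 fell, beside the same 7.72% over all genes. Pdgfra, the PDGF receptor of mesenchymal cells, was that marker. It had 10.9, 8.36, 3.92 and 6.87 CPM in Neat1 null libraries, against 41.2, 40.9, 148 and 129 CPM in wild-type libraries (-3.59, adjusted p = 0.00806, edgeR, a call lost without Neat1 null library 3). Like Hmga2 it was lowest in Neat1 null library 3 and highest in wild-type libraries 3 and 4; the part of these marker levels in the difference of Hmga2 was not tested.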

How the data were processed

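Each library has 1 table of unnormalised counts by gene symbol, as deposited by the authors. The submitters' processing notes name CASAVA 1.8, STAR, DESeq2 and the mm10 build without roles; the counter, its strand setting and its annotation are not given in the sources used here. Reads outside genes (5.48% to 15.7%) and ambiguous reads (1.09% to 1.76%) name no gene and were left out.

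The members and all lists were chosen with earlier results of these data known. Genes were filtered with filterByExpr (minimum count 10, 13316 kept), scaled by TMM and tested with edgeR 4.0.16's quasi-likelihood F test in R 4.3.3 (robust, 2-sided, genotype only, Benjamini-Hochberg over all genes, threshold 0.05). The standard error is the log2 fold change over the square root of F. CPM were computed with the TMM factors. Genes named from a list are its called ones (the 4 lowest p at most), and all let-7 precursor and Igf2 axis genes; others named (Nras, Myc, Ccnd1, Zcchc11, Zcchc6, Cdkn2a, Hmga2-ps1 and uncalled markers) were chosen after their values were seen. Some genes of the lists are not reported here.

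Lengths, GC and UTRs are from GENCODE M21 (GRCm38); 98.5% of symbols matched. Alternatives were DESeq2 1.42.0, other size factors and filters, left-out libraries, the replicate number as a block, sex, and a correction for length and GC (splines with 5 degrees of freedom as offsets). No 2 libraries of a genotype were duplicates: the lowest chi-square over its degrees of freedom was 62.1. The tests were checked on simulated data.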

Additional observations from a re-analysis of the deposited data

Results flagged for a closer look

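Lin28b in wild-type library 1, at 29.7 CPM, stood far from the other wild-type libraries, which had 14.7 to 16.8 CPM: its gap to the nearest was 0.857 of the group's range, above Dixon's critical value. It was the only 1 of 16 groups of 4 libraries looked at to do so, and chance flags about 1 in 20 such groups. Lin28b had a log2 fold change, Neat1 null minus wild-type, of 0.12 when that library was omitted and of -0.18 with it. The flag was set on CPM without the length and GC correction. Corrected values of Lin28b were 20.6, 15.7, 10.5 and 11.9 CPM in wild-type libraries 1 to 4, so library 1 stood less apart. Neat1 null library 1 was then the highest, at 31.7 CPM.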

How the results depend on the processing

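Hmga2 kept its direction in all 18 alternatives, with log2 fold changes of -3.26 to -1.61. With 1 library left out the genes past the threshold numbered 11 to 2965 and the members past it 0 to 1, and without Neat1 null libraries 1 and 3 together 7 and 0. The length and GC correction left 1468 genes. With sex as a covariate 4 members passed, all lower: Hmga2, Lin28b (-2.05, adjusted p = 0.0312, edgeR), Dicer1 (-1.85, 0.0250) and Igf2bp3 (-1.37, 0.0479). By its construction that fit sets Neat1 null library 3, the only female Neat1 null library, against the 4 wild-type libraries. With DESeq2 3433 genes passed, and the same 1 member. The replicate numbers did not pair the libraries (same-number correlations of -0.252 to 0.319, and 1 of 4 Neat1 null libraries correlated best with its own number). With the replicate number as a block 2245 genes passed, Hmga2 with -1.97 (adjusted p = 0.0167, edgeR), so the block changed no member's call.

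No correlation of Hmga2 with another member passed under any setting, so their signs are unsettled. After the length and GC correction r was 0.223 for Hmga1, -0.182 for Lin28b, -0.353 for Igf2bp1, -0.180 for Igf2bp3 and -0.308 for Dicer1. Without the 2 libraries farthest from the median of Hmga2 it was 0.211 for Hmga1, -0.310 for Lin28b, -0.332 for Igf2bp1, -0.566 for Igf2bp2, -0.00359 for Trim71 and -0.192 for Dicer1. Without Neat1 null libraries 1 and 3 together it was -0.311 for Lin28b, -0.363 for Igf2bp1, -0.133 for Igf2bp3, -0.0567 for Trim71 and -0.325 for Dicer1. With 1 library left out it ran from -0.587 to 0.201 for Hmga1, -0.382 to 0.599 for Lin28b, -0.443 to 0.365 for Igf2bp1, 0.0920 to 0.771 for Igf2bp2, -0.102 to 0.670 for Igf2bp3, -0.246 to 0.282 for Trim71 and -0.394 to 0.635 for Dicer1. The cause of these reversals was not tested.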
